A study of Rattus norvegicus with 12 samples.

Results

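Genes whose expression was highest in T cells of the cerebrospinal fluid (CSF) were examined in CD4+ T cells of Lewis rats with experimental autoimmune encephalomyelitis (EAE). Of 26405 genes counted, 80 formed this group. A gene belonged to it when its mean over the 3 CSF libraries was at least 5 CPM (the gene's count scaled to a fixed total of gene counts per library), at least 1.5 times the mean of 3 blood libraries and at least 1.5 times that of 3 CNS parenchyma libraries, and above the mean of 3 libraries from the spinal cord meninges. The group was thus chosen from the measured values. Its excess in CSF is given as a description, and tests are given only between the other 3 compartments.

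The cells were specific for myelin basic protein (MBP), a protein of the myelin sheath, and expressed green fluorescent protein (GFP), by which they were sorted in the cold. Wild-type Lewis rats with EAE were the source of the cells of all 4 compartments, and the labels separate the groups by tissue. Messenger RNA libraries were made with a TruSeq protocol. The labels give no age, sex or day of disease, and do not say whether separate animals or pools lie behind the 3 libraries of a compartment. P-values below therefore measure the spread between libraries, which may be technical.

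EAE is a model of multiple sclerosis in which CD4+ T cells that recognise myelin leave the blood, enter the meninges and invade the CNS tissue. The CSF fills the space between the meningeal layers. T cells there float free in a fluid poor in protein, without the contacts to vessels, matrix and antigen-presenting cells that meninges and parenchyma offer. T cells pass between the leptomeninges and the CSF in both directions, so the cells in the fluid share a route with meningeal cells.

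A library held between 11277725 and 22056664 gene counts. Every one of the 80 genes had counts in all 12 libraries. Reads aligned to several places made up 65.2% of the entries of blood replicate 3 and 61.4% of those of meninges replicate 2. The other 10 libraries lay between 35.8% and 43.9%. The deposited files list Ensembl identifiers only and 0 of the 47357 rows of the reference table carry one. The 80 genes are therefore described by their values, with identifiers for 2 of them, and their functions, sequences and the marker genes of the sorted cells were not analysed here.

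T cells in the CSF devoted more than 2 times as large a share of their gene counts to these 80 genes as blood T cells. The share was 0.866%, 0.971% and 0.862% in the 3 CSF libraries and 0.376%, 0.484% and 0.377% in the blood libraries. In meninges it was 0.645%, 0.718% and 0.654%, and in parenchyma 0.515%, 0.556% and 0.542%. The 4 compartments did not overlap, in the order CSF, meninges, parenchyma, blood. Means were 0.900% ± 0.0622 (SD, n = 3) in CSF, 0.673% ± 0.0400 in meninges, 0.537% ± 0.0209 in parenchyma and 0.412% ± 0.0623 in blood. That CSF stands first follows from how the genes were chosen. In each compartment the library numbered 2 was the highest of the 3. In bulk samples, more cells expressing a gene and more RNA of it per cell cannot be told apart.

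**Figure D1:**
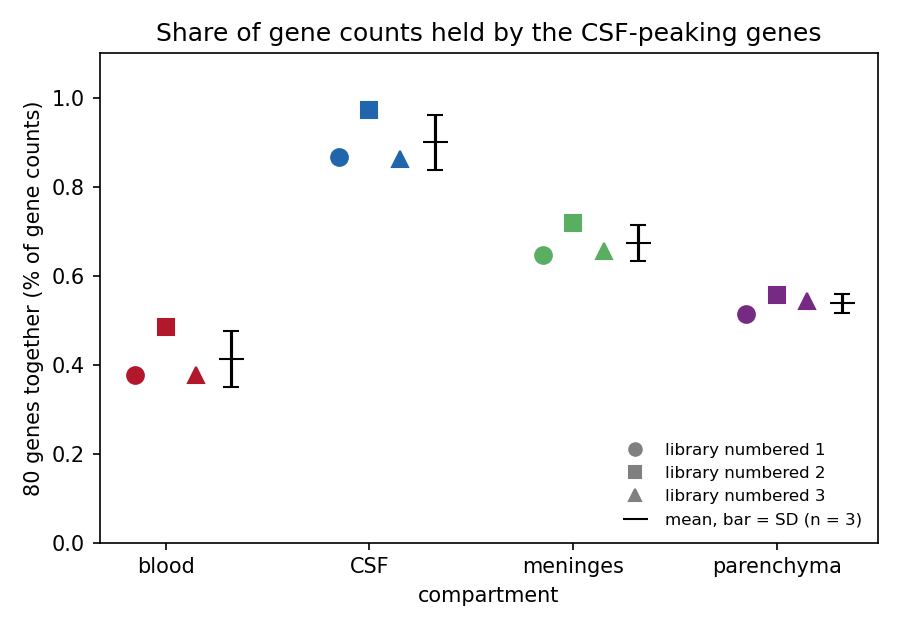
Share of gene counts held by the 80 CSF-peaking genes together (y axis, percent) in each library, by compartment (x axis). Symbols show the library number and bars the mean ± SD of 3 libraries. CSF libraries lie at 0.862% to 0.971% and blood libraries at 0.376% to 0.484%.

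Most of the excess was moderate. The mean in CSF exceeded that in blood by a median of 1.96-fold over the 80 genes, and 35 genes were at least 2-fold higher. Over parenchyma the median was 1.70-fold, with 21 genes at least 2-fold higher. Over meninges the median was 1.31-fold, 13 genes exceeded 1.5-fold and 1 gene exceeded 2-fold. Both the blood and the parenchyma ratio reached 2 for 11 genes. The extremes were 16.1-fold over blood, 5.98-fold over parenchyma and 2.18-fold over meninges.

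The condition on the meninges removed no gene. All 80 genes that met the conditions on level, blood and parenchyma also had a higher mean in CSF than in meninges, the closest by 1.02-fold. Without the condition on blood 444 genes would have been included, without that on parenchyma 396, and without that on the CSF level 758. The 2 genes nearest above the level limit had 5.10 and 5.12 CPM in CSF, and the 2 nearest below had 4.86 and 4.49. Nearest the blood limit, genes lay at 1.51- and 1.53-fold inside and at 1.49-fold, both, outside. Nearest the parenchyma limit, genes lay at 1.5018- and 1.51-fold inside and at 1.4985- and 1.49-fold outside. Genes just outside thus differed little from genes just inside.

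**Figure D2:**
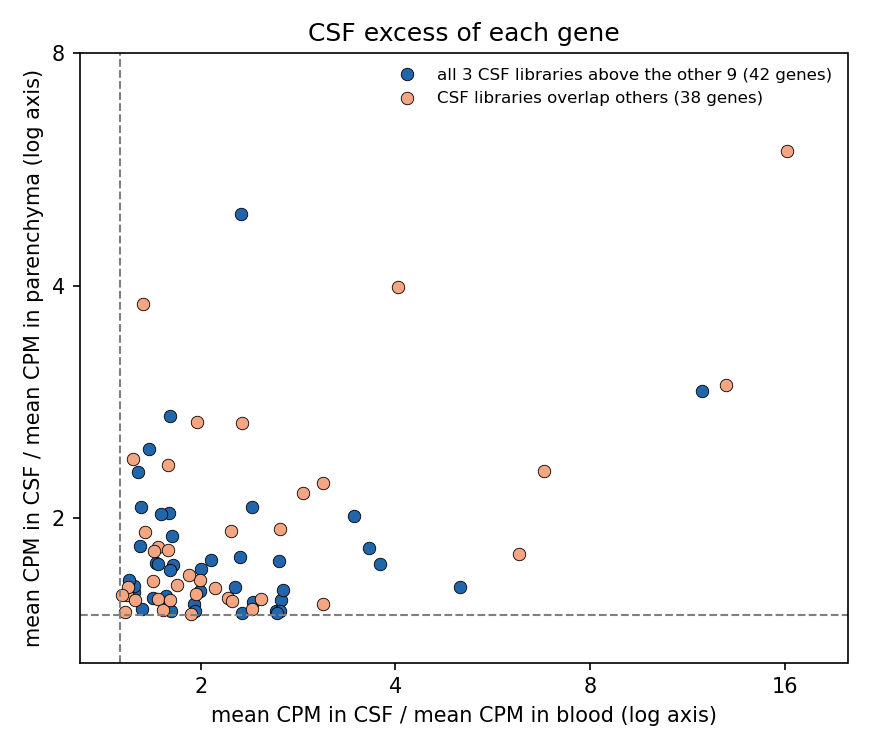
Each point is 1 of the 80 genes, with its mean CPM in CSF divided by that in blood (x axis) and in parenchyma (y axis), both on log axes. Dashed lines mark the 1.5-fold limits of the rule. The 42 genes in blue have all 3 CSF libraries above the other 9, and most points lie close to the limits.

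The libraries of a single gene were separated less clearly than the means. For 42 of the 80 genes (52.5%) all 3 CSF libraries lay above each of the other 9 libraries. Among all 8927 genes with at least 5 CPM in CSF this held for 3.97%, a difference that the choice of the genes brings about. CSF libraries lay above all blood libraries for 73 of the genes (24.3% of the 8927) and above all parenchyma libraries for 74 (26.5%). They lay above all meninges libraries for 42 (9.7%). Overlap with other libraries arose mostly toward the meninges. The rule asks for 1.5-fold over blood and parenchyma but only for a higher mean than meninges, so the choice of genes favours this.

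The gene with the largest excess was ENSRNOG00000017539, ranked by the smaller of its ratios to blood and parenchyma. It had 4.85, 7.82 and 4.55 CPM in the CSF libraries and 0.287, 0.631 and 0.151 CPM in the blood libraries. In parenchyma it had 0.976, 1.24 and 0.668 CPM, and in meninges 6.38, 3.61 and 6.16 CPM. CSF and meninges overlapped for this gene, and both lay above blood and parenchyma. Since it was singled out for its low blood and parenchyma values relative to CSF, the p-values that follow rest in part on values used to choose it. ENSRNOG00000017539 had a log2 difference of meninges from blood of 3.83 (SE 0.42, adjusted p = 1.52e-05, edgeR). It was lower in parenchyma than in meninges, at -2.44 (SE 0.36, adjusted p = 0.00110, edgeR). Between parenchyma and blood the log2 difference was 1.39 (SE 0.52, adjusted p = 0.0389, edgeR), on 46 counts in parenchyma and 18 in blood. This last call was lost without blood replicate 1 (adjusted p = 0.119) or 3 (0.127), and without parenchyma replicate 1 (0.0768) or 2 (0.129).

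The gene with the most counts in CSF was ENSRNOG00000000577, an order that depends on transcript length as well as abundance. It had 642, 651 and 616 CPM in CSF and 304, 276 and 251 CPM in blood. Meninges libraries held 397, 439.95 and 419 CPM and parenchyma libraries 311, 381 and 379.8 CPM. All CSF libraries lay far above the rest, and the meninges libraries above all blood and parenchyma libraries. For ENSRNOG00000000577 the log2 difference of meninges from blood was 0.60 (SE 0.10, adjusted p = 0.000284, edgeR) and that of parenchyma from blood 0.42 (SE 0.10, adjusted p = 0.00222). Between parenchyma and meninges it was -0.18 (SE 0.09, adjusted p = 0.258), which did not pass the threshold. The rule limits the blood and parenchyma values on which these p-values rest in part. The excess in CSF over meninges, 1.52-fold, was among the 13 above 1.5-fold.

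The genes following these in rank show how varied the group was. The gene second by excess had 7.30, 2.41 and 5.60 CPM in CSF, with its lowest CSF value in the library numbered 2. It also had the largest ratio to meninges, 2.18, on 290 counts in CSF. In meninges its highest value was 3.37 CPM, and its CSF and meninges libraries overlapped. The next gene by excess resembled the first, at 5.71, 8.16 and 4.41 CPM in CSF, 7.36, 3.21 and 5.71 CPM in meninges and 0.287 to 0.747 CPM in blood. The gene after that had 11.6, 14.8 and 16.6 CPM in CSF and 7.54 to 10.9 CPM in meninges, with all CSF libraries above the meninges libraries. In blood it had 0.803 to 1.66 CPM, and in parenchyma 3.51 to 6.12 CPM.

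The gene with the second most counts had 632, 659 and 609.95 CPM in CSF, 415, 521 and 413 CPM in meninges, 394, 467 and 399.98 CPM in parenchyma and 221, 279.9 and 225 CPM in blood. In meninges, parenchyma and blood its highest value was in the library numbered 2, as in CSF. The gene with the ninth most counts varied in the same way and more widely, at 182 CPM in blood replicate 2 against 60.8 and 68.9 CPM in the other blood libraries. In CSF it had 452 CPM in replicate 2 and 317 and 365 CPM in the others. Its excess over blood was 3.64-fold as a mean over 3 libraries.

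The genes of the group were spread over a wide range of CSF levels. At every level the rule itself fixes a CSF excess of at least 1.5-fold over blood and parenchyma. There were 16 genes at 5 to 10 CPM in CSF, 23 at 10 to 30, 17 at 30 to 100 and 24 at 100 CPM or more. Median ratios of CSF to parenchyma in these bands were 2.00, 1.66, 1.72 and 1.61. For blood they were 2.01, 1.79, 1.92 and 2.28. At 5 to 10 CPM all CSF libraries stood above the other 9 for 5 of 16 genes, and at 100 CPM or more for 17 of 24. Shares among all genes of each band are not given, so these counts are a description only. The fewest counts of a gene in 1 compartment were 18 in the lowest band and 1357 in the highest, so ratios of the low genes carry more counting error.

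Below the CSF, meninges was the next compartment for most genes. The rule keeps blood and parenchyma 1.5-fold below CSF and limits meninges only by the CSF mean. This order, and a place of meninges nearer to CSF, are thus favoured by the choice of genes. The order of means was CSF, meninges, parenchyma, blood for 52 genes and CSF, meninges, blood, parenchyma for 24. In the remaining 4 genes blood or parenchyma stood next to CSF. On a log scale running from the blood mean (0) to the CSF mean (1), meninges lay at a median of 0.614, and beyond the midpoint for 51 genes. On the corresponding scale from parenchyma to CSF it lay at a median of 0.533, beyond the midpoint for 46 genes.

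**Figure D3:**
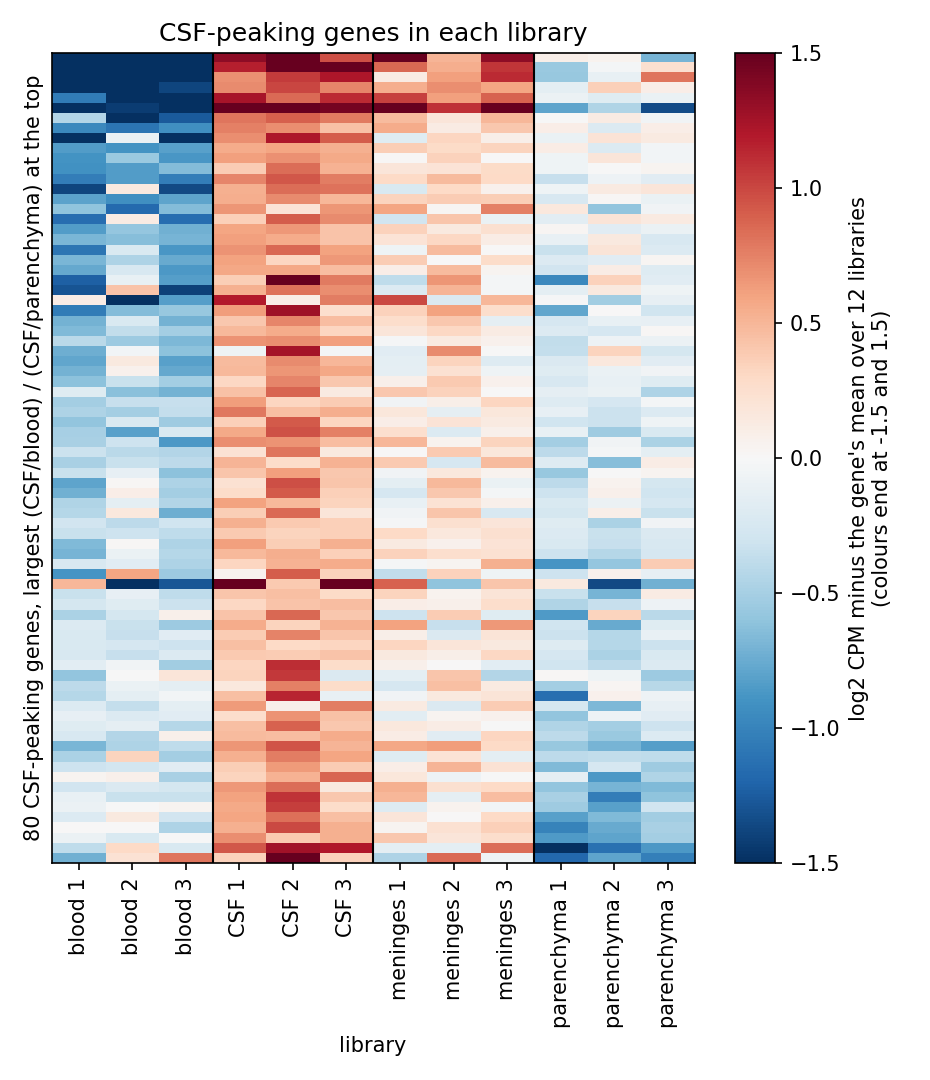
Level of each of the 80 genes (rows) in each of the 12 libraries (columns), as log2 CPM minus the gene's mean over all libraries. Rows run from genes with a larger ratio to blood than to parenchyma (top) to the reverse (bottom). CSF columns are red throughout nearly all rows, meninges columns are paler, and the lowest values lie in blood at the top and in parenchyma at the bottom.

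Meningeal T cells expressed many of these genes above the level of blood T cells. In meninges 47 of the 80 genes (58.8%) were higher than in blood and 0 were lower (edgeR, adjusted p under 0.05), against 16.6% higher and 19% lower among all 11498 genes tested. The median log2 difference was 0.59 over the 80 genes and -0.01 over all genes tested. Of the 47 genes 16 exceeded 2-fold, for which no share over all genes is given. Called genes ranged from 0.40 to 3.83. With DESeq2, 50 genes were higher and 0 lower, against 17.3% and 17.6% of all genes. At an unadjusted p under 0.05, 55 genes were higher and 0 lower, a count given without a share over all genes. The rule sets an upper limit for blood and none of that kind for meninges, so a higher level in meninges is favoured by the choice of genes.

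The gene with the smallest adjusted p in this comparison had means of 143 CPM in CSF, 124 in meninges, 88.0 in parenchyma and 28.5 in blood. Its log2 difference of meninges from blood was 2.13 (SE 0.13, adjusted p = 1.15e-07, edgeR). Its parenchyma level also exceeded that of blood, by 1.69 (SE 0.13, adjusted p = 3.23e-07, edgeR). Both comparisons share the blood libraries. The gene was picked by its p-value, and both p-values rest in part on blood values that the rule limits.

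Parenchymal and blood T cells differed in both directions. Parenchyma levels of 25 genes (31.2%) exceeded those of blood and 4 (5%) were lower, against 24.6% and 25.7% of all genes tested. The share lower was thus well below that of all genes, and the share higher was nearer to it. The median log2 difference was 0.25, and -0.002 over all genes. Among genes called higher the differences ran from 0.28 to 2.13. Those 4 lower ran from -0.51 to -1.04. The rule sets the same 1.5-fold limit against CSF for both compartments. These limits need not act alike: 444 genes met the rule without that on blood and 396 without that on parenchyma. Blood and parenchyma values were both used in the choice, and whether it favours a direction was not tested. With the library number as a replicate block 35 genes (43.8%) were higher and 6 lower, against 28.5% and 29.4% of all genes in that fit. Without the 4 libraries numbered 2, a setting chosen after seeing the data, 40 genes (50%) were higher, against 24.4% of all genes. How far the share of genes higher exceeded that of all genes thus depended on how the numbered libraries were treated. The count of genes lower was 1 without blood replicate 2, 1 without parenchyma replicate 1 and 2 without parenchyma replicate 2. Among all genes the shares lower in these fits were 23.1%, 22% and 21.8%.

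Of the genes called lower in parenchyma than in blood, that with the smallest adjusted p had means of 14.8 CPM in CSF, 12.4 in meninges, 9.45 in blood and 6.21 in parenchyma. Its log2 difference of parenchyma from blood was -0.54 (SE 0.12, adjusted p = 0.00250, edgeR). It was also lower in parenchyma than in meninges, by -0.94 (SE 0.12, adjusted p = 0.000515, edgeR). The gene was picked by its p-value, and both p-values rest in part on parenchyma values that the rule limits.

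From meninges to parenchyma the genes fell or did not pass the test. In parenchyma 22 genes (27.5%) were lower than in meninges and 0 higher, against 5.37% and 6.58% of all genes tested. When the library number entered the fit as a replicate block, 39 were lower and 0 higher, against 9.77% and 11.3% of all genes in that fit. Without meninges replicate 3 the count of genes lower was 14 (17.5%), against 2.74% of all genes. The median log2 difference was -0.33, and -0.004 over all genes tested. Called genes ranged from -0.32 to -2.44, and 4 of them exceeded 2-fold, for which no share over all genes is given. With DESeq2, 25 genes were lower and 0 higher, against 6.07% and 7.56% of all genes. At an unadjusted p under 0.05, 40 genes were lower and 0 higher, a count given without a share over all genes. The rule limits parenchyma from above and meninges only by the CSF mean, so a lower level in parenchyma is favoured by the choice of genes.

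Of these genes, the one with the smallest adjusted p had 32.7, 33.6 and 26.8 CPM in meninges and 14.8, 13.4 and 12.3 CPM in parenchyma. In blood it had 13.6, 15.9 and 16.8 CPM, and in CSF 34.5, 41.9 and 31.0 CPM. Its log2 difference of parenchyma from meninges was -1.15 (SE 0.14, adjusted p = 0.000309, edgeR). Levels in blood and parenchyma were close, with a log2 difference of -0.14 (adjusted p = 0.441, edgeR), and levels in meninges and CSF overlapped. This gene was picked by its p-value against meninges, which rests in part on parenchyma values that the rule limits.

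**Figure D4:**
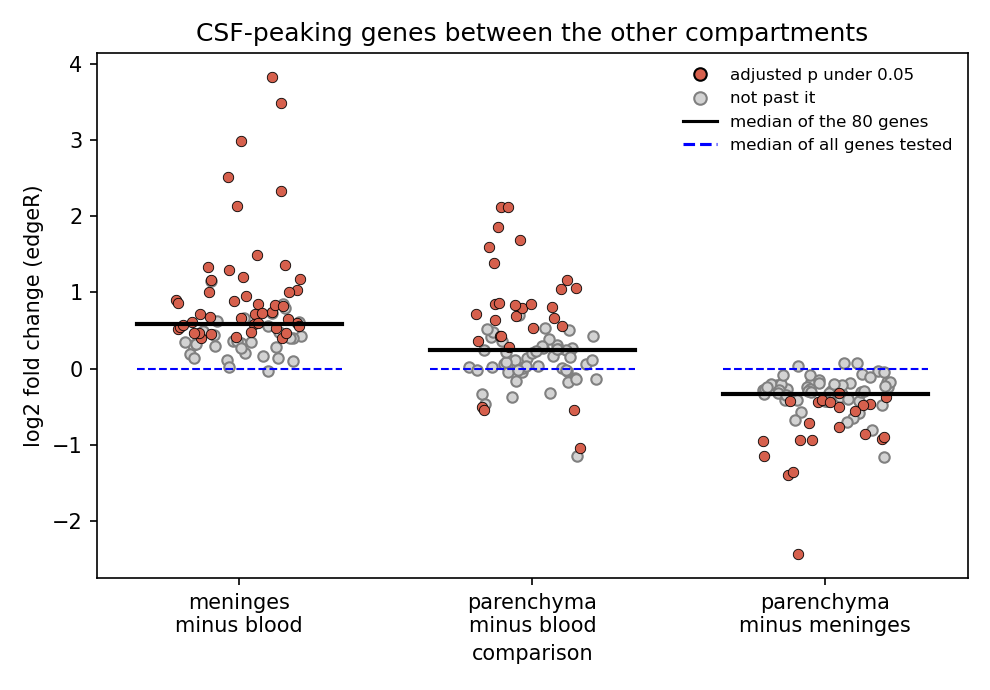
Log2 fold changes of the 80 genes (points) in the 3 comparisons that leave out CSF, which the rule did not make. Red points passed an adjusted p of 0.05, black lines are medians of the 80 genes (0.59, 0.25 and -0.33) and dashed lines medians of all genes tested, which lie near 0.

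To read the CSF excess in libraries that had no part in the choice, the rule was applied to the 8 libraries left after leaving out all those with 1 number, and the genes found were read in the 4 left out. Without the libraries numbered 1, 82 genes met the rule, and in the held-out libraries CSF was the highest compartment for 75 of them (91.5%). Without those numbered 2, 63 genes met it and CSF was highest for 59 (93.7%). Without those numbered 3, 105 genes met it and CSF was highest for 80 (76.2%). Among all genes with at least 5 CPM in CSF the shares were 21.3%, 26.6% and 19.3%. With 1 library a compartment these shares carry no test.

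The sizes of the differences carried over in part, and each median ratio to meninges was smaller in the held-out libraries. Median ratios of CSF to blood in the held-out libraries were 1.94, 1.92 and 1.78, against 1.90, 2.21 and 1.82 in the libraries that chose the genes. For CSF to parenchyma they were 1.66, 1.71 and 1.51, against 1.69, 1.67 and 1.73. For CSF to meninges they were 1.203, 1.31 and 1.15, against 1.34, 1.32 and 1.32. All conditions of the rule were met again by 46 of 82 genes (56.1%), 35 of 63 (55.6%) and 37 of 105 (35.2%), against 0.931%, 1.66% and 0.628% of all genes with at least 5 CPM.

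**Figure D5:**
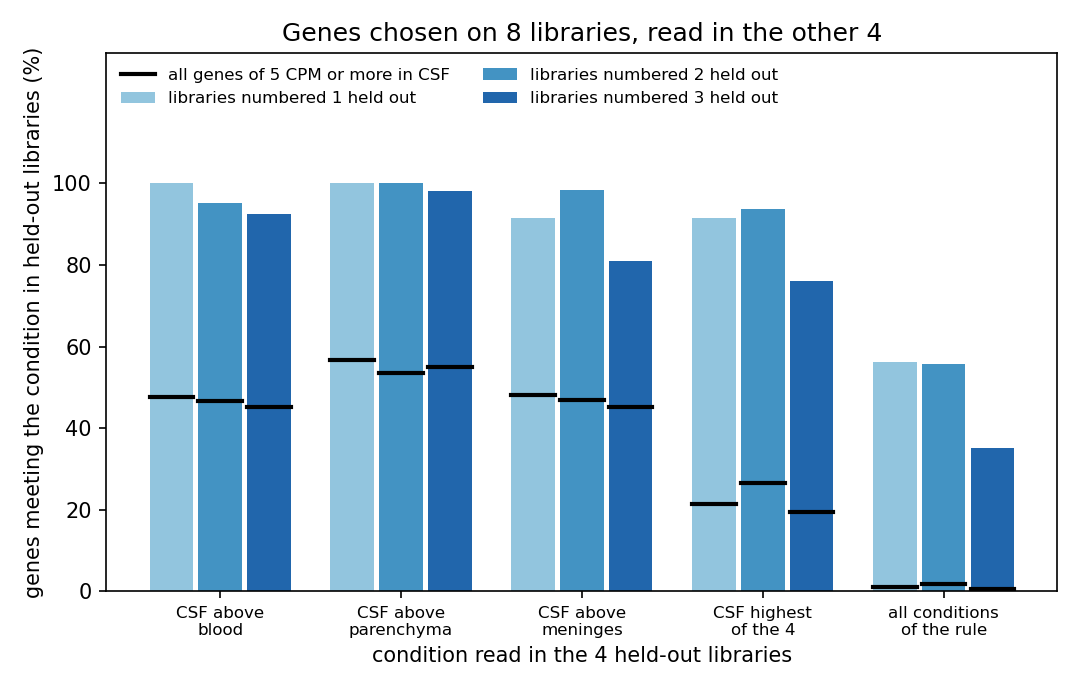
Percent of genes (y axis) that met each condition (x axis) in 4 held-out libraries, for genes chosen on the other 8. Bars show the libraries numbered 1, 2 and 3 held out in turn, and black lines the percent among all genes of at least 5 CPM in CSF, which lies at 0.628% to 1.66% for all conditions together against 35.2% to 56.1% of the chosen genes.

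The held-out libraries also repeated the order of the other compartments. The choice on the other 8 libraries favours meninges over blood and parenchyma here as well. Meninges lay above blood for 95.1%, 85.7% and 86.7% of the genes chosen without the libraries numbered 1, 2 and 3, against 49%, 48.3% and 47.5% of all genes with at least 5 CPM in CSF. Meninges lay above parenchyma for 92.7%, 95.2% and 90.5%, against 59.6%, 57.7% and 58.4%. Parenchyma lay above blood for 62.2%, 57.1% and 65.7%, against 45.6%, 44.9% and 44.5%.

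Many of the 80 genes were highest in the libraries numbered 2. In CSF replicate 2 had the highest level of the 3 CSF libraries for 54 genes, replicate 1 for 16 and replicate 3 for 10. Among the 8927 genes replicate 2 was highest for 40.3%. In blood the library numbered 2 was highest for 42 of the 80 genes (30.5% of the 8927), in meninges for 37 (34.3%) and in parenchyma for 34 (31.5%). It was highest in 3 or 4 compartments for 34 genes, 18 of them in all 4, while 8.09% of the 8927 genes had it highest in all 4. The median log2 distance of CSF replicate 2 from the mean of the other CSF libraries was 0.19 over the 80 genes and -0.01 over the 8927. What the number stands for is not stated in the labels, and its part in the choice of the genes was not tested.

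Values within each number are given as a description, since the genes were chosen for their CSF excess over these same libraries. Taking the 4 libraries of 1 number, CSF was the highest for 77 of the 80 genes in number 1, 80 in number 2 and 68 in number 3. Among all genes with at least 5 CPM in CSF in the other 8 libraries, the shares were 21.3%, 26.6% and 19.3%. CSF was highest in all 3 numbers for 68 genes, against 8.86% of the 8927 genes. Summed over the 80 genes, CSF exceeded blood 2.30-, 2.01- and 2.29-fold within the numbers 1, 2 and 3, parenchyma 1.68-, 1.75- and 1.59-fold, and meninges 1.34-, 1.35- and 1.32-fold. The 34 genes highest in the library numbered 2 in 3 or 4 compartments and the other 46 had all CSF libraries above the other 9 in 18 and 24 genes, against 3.97% of the 8927 genes. Their median ratios to meninges were 1.36 and 1.25.

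Which genes met the rule depended on single libraries. The rule was met by 34 of the 80 genes whichever of the 12 libraries was left out, and 46 failed it at least once. Without CSF replicate 2, 26 of the 80 failed, against 9 without CSF replicate 1 and 4 without CSF replicate 3. The 34 stable genes had a median of 56.1 CPM in CSF, median ratios of 2.16 to blood, 1.82 to parenchyma and 1.34 to meninges, and all CSF libraries above the other 9 in 24 cases. The 46 others had a median of 23.9 CPM and median ratios of 1.82, 1.59 and 1.25, with 18 such cases. Among all 8927 genes with at least 5 CPM in CSF such cases made up 3.97%. Larger ratios in the stable genes follow from their distance to the limits of the rule.

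Spread between libraries was larger for these genes than for the 8927 genes with at least 5 CPM in CSF. The sets were not matched for level, and low genes carry more counting error. The median coefficient of variation among the 3 CSF libraries was 13.0% for the 80 genes and 7.95% for the 8927. In blood it was 15.1% against 5.99%, in meninges 14.0% against 6.69% and in parenchyma 13.4% against 8.51%. The choice did not use the spread within a group, though a mean raised by 1 library can carry a gene over a limit.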

How the data were processed

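RNA of sorted T cells was measured in 12 libraries, 3 per compartment, grouped by their titles. The deposited files hold whole-number counts per gene, not normalized, as the authors' processing left them. Per the submitters' processing notes, CASAVA 1.8.2, STAR, SAMtools, HTSeq and DESeq2 were used, with no role given. For genome build, annotation and strand setting nothing is stated (not given in the sources used here). The 5 summary lines of each file were kept out of totals. They held the reads aligned to several places, those outside genes (15.5% to 21.9% of entries) and ambiguous ones (0.0412% to 0.0911%), so genes that have near-identical copies lose reads, and overlapping or antisense genes may share reads. A count of 0 allows up to 3 counts, or 0.136 to 0.266 CPM by library, for counting error only.

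Members and gene lists were chosen with earlier results of these data known. Gene lists, promoter motifs and the planned naming rule need gene names and were not used. The 2 identifiers printed are the first by excess and the first by CSF level. CPM are counts divided by the library's gene counts and scaled. Tests used R 4.3.3 and edgeR 4.0.16 (quasi-likelihood, TMM scaling, filterByExpr, 11498 genes, all 12 libraries in 1 fit on compartment, Benjamini-Hochberg over all genes). All 80 genes passed the filter. SEs were derived from the F statistic. The fits and the rule were tested on simulated data without an effect of library number. For the rule a single size of CSF rise was simulated, larger than the median excess of the 80 genes. Genes near the limits of the rule were thus not covered. Alternatives were DESeq2 1.42.0, other scalings and filters, the 2 groups alone, an adjusted p under 0.01, other limits of the rule, each library left out, and a replicate block. Held-out readings used no test.

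Whether library numbers pair samples was checked by correlating deviations from group means over tested genes. Same-numbered libraries correlated at 0.193, 0.323 and 0.205 between parenchyma and blood and at 0.274, 0.450 and 0.376 between parenchyma and meninges. All lay above the 0.1 asked of each pair, so the numbers were taken as pairs there from the data, not the labels. The main fit, on compartment alone, did not use this pairing, and neither do the main counts and p-values. Counts from the fit with the replicate block, which does use it, are given beside the main counts of these comparisons. Between meninges and blood the values were 0.219, 0.252 and 0.077. The last lay below 0.1, so no pairing was taken. This does not show that these libraries were unpaired, since pairs of parenchyma with blood and with meninges would pair them too.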

Additional observations from a re-analysis of the deposited data

How the results depend on the processing

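Of 80 genes peaking in CSF, the rule at 1.2 times blood and parenchyma gave 518 genes, at 2 times 11, and with at least 1.5 times meninges 13, as follows from stricter or looser limits. Leaving out 1 library gave 64 to 100 genes. Medians in place of means gave 72, 59 of them among the 80, and TMM-scaled CPM 75, 71 of them among the 80. Without the libraries numbered 2, 51 of the 80 remained, and without blood replicate 3 and meninges replicate 2, which had the most multiply aligned reads, 73 remained, settings added after seeing the data. Genes higher in meninges than in blood (47) ranged from 39 (13.5% of all genes in that fit) to 54 (15.6%) when 1 library was omitted. Over 22 alternatives they ranged from 35 (10.7%, at an adjusted p under 0.01) to 65 (9.85%, without the filter), with 0 lower in each. The replicate block gave 65 genes higher in meninges than in blood (21.3% of all genes in that fit). No pairing was taken for this comparison, because number 3 correlated at 0.077, below the 0.1 asked, and better with another number. Numbers 1 and 2 passed, at 0.219 and 0.252. Missing the limit in number 3 does not show that the libraries were unpaired. Genes higher in parenchyma than in blood (25) ranged from 18 (21.5% of all genes in that fit) to 30 (22.9%) when 1 library was omitted. There were 35 with the replicate block (28.5% of all genes in that fit) and 40 without the libraries numbered 2 (24.4% of all genes). Genes lower there (4) ranged from 1 (22% or 23.1% of all genes) to 6 (26.7%) when 1 library was omitted. An adjusted p under 0.01 left 1 (19.2% of all genes), and the block gave 6 (29.4%). Genes lower in parenchyma than in meninges (22) ranged from 14 (2.74% of all genes in that fit) to 25 (5.22%) when 1 library was omitted. There were 11 at an adjusted p under 0.01 (1.86%), 35 without the filter (3.68%) and 39 with the replicate block (9.77%). In each of the 22 alternatives 0 were higher. The block moved no other count by over 1.5 times and changed no call of the 2 genes named. Where no construction explains a move, the cause was not tested. For ENSRNOG00000017539 the parenchyma-to-blood difference lost its call in 6 of 22 alternatives, with adjusted p from 0.00201 to 0.129. Its other 2 comparisons, and all 3 of ENSRNOG00000000577, kept direction and side of the threshold in all 22. Depth limits the genes near 5 CPM most.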

Other observations

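Replacing CSF by meninges in the rule, so that meninges had to reach 5 CPM, 1.5 times blood and 1.5 times parenchyma and lie above CSF, gave 2 genes, against 80 for CSF. The reverse pattern, with blood and parenchyma both at 5 CPM or more and at least 1.5 times CSF and with meninges above CSF, was found for 53 genes. Both counts were chosen after the data were seen and carry no test.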
